A study of Mus musculus with 4 samples.

Results

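The signalling lymphocytic activation molecule (SLAM) family is a set of cell surface receptors of the immunoglobulin superfamily, carried by blood cells and, for several members, by blood stem and progenitor cells. Most members bind another copy of themselves on a neighbouring cell, whereas CD48, which is held in the membrane by a lipid anchor, binds the family receptor CD244. Receptors with a cytoplasmic tail recruit small SH2 adaptor proteins, Src-family kinases and phosphatases, so that they can send activating or inhibitory signals. In mouse bone marrow, antibodies to CD150 (encoded by Slamf1) and CD48 are used to separate long-lived stem cells, which carry CD150 and lack CD48, from the progenitors that descend from them.

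The genes described are Slamf1, Cd48, Ly9, Slamf6 and Slamf7, taken by symbol from the gene table. They are 5 of 32285 genes, and 2 of the 13 surface antibodies counted in the same cells, anti-CD150 and anti-CD48, recognise the products of 2 of them. The cells were CD45.2+ Kit+ mouse bone marrow cells taken 10 weeks after transplantation, so that every group shared the transplant and the selection for Kit, a receptor of early progenitors. The groups were a control and deletions of Mll3, of Mll4 and of Mll3/4, where Mll3 and Mll4 (genes Kmt2c and Kmt2d) encode related histone H3 lysine 4 methyltransferases; each group was 1 library. The Cre driver, the timing of deletion, the host and the number of animals pooled are not given in the sources used here.

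With 1 library per group there is no replicate error and no test. Intervals below are exact 95% intervals that cover counting error only, and a difference between libraries cannot be told apart from a difference between animals, stainings or library preparations. After filtering, the libraries held 5350 to 7146 cells, with median depths of 5142 to 16963.5 unique molecular identifiers (UMIs) per cell, lowest in the library labelled Mll4. Kmt2c stood at 47.9 CPM (counts scaled to a common library total) in control and at 27.2, 59.2 and 34.8 CPM in the Mll3-, Mll4- and Mll3/4-labelled libraries. Kmt2d stood at 25.8, 21.6, 24.99 and 24.7 CPM in the same order, so its 3′ count did not follow the labels, and counts outside a deleted part of a gene check nothing. Xist was at 0.519 CPM in the library labelled Mll4 against 955 to 1839 CPM in the other 3, so that library also stood apart in this respect. Libraries are therefore named by their labels (Mll3-labelled and so on). The antibody to CD117, which is Kit, had a median of 105 to 255 counts per cell in the 4 libraries. Between 9 and 24 cell barcodes were shared by each pair of libraries.

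Cell classes were made by clustering without any SLAM family gene and without antibodies, and were named from marker lists. A class counts here where it held at least 50 cells. B-cell progenitor-like cells carried all 12 of their markers in every library (Ebf1, which specifies the B lineage, stood at 2592, 2108, 2237 and 1853 CPM in control and the Mll3-, Mll4- and Mll3/4-labelled libraries). Cell make-up differed greatly between the libraries: this class had 471 of the 7146 control cells, 369 of 5860 and 143 of 5350 in the Mll3- and Mll4-labelled libraries, and 6831 of 6917 in the library labelled Mll3/4. It is the only class in which the library labelled Mll3/4 could be compared with control.

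All members lie together on chromosome 1, so that neighbouring genes can be set side by side in the same cells. In GENCODE M21, on the mm10 build, Ly9 spans chr1:171588624-171607410 and Slamf7 chr1:171632403-171653035, both on the minus strand. Cd48 spans chr1:171682009-171705258, Slamf1 chr1:171767127-171801184 and Slamf6 chr1:171917515-171953170, all on the plus strand. The start of Cd48 lies 28.974 kb from that of Slamf7 and 85.118 kb from that of Slamf1, and the 5 genes together cover 364.546 kb. Ly9 overlaps Cd244a on the opposite strand, and Slamf6 and Slamf7 overlap the antisense genes Gm37065 and Gm37787. Whether the counting used strand is not given in the sources used here, so reads of such partners may have been shared.

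RefSeq promoter stretches of build GRCm38.p6 were found for 4 of the 5 members and are shown because genes so close together differed in level between the libraries. Each line gives the 250 bases before the RefSeq start, read 5′ to 3′ on the gene's own strand; capitals mark matches to the motifs named after them. The stretches are, in order along the chromosome, chr1:171649000-171649249 (minus strand) for Slamf7, and chr1:171681742-171681991, chr1:171766882-171767131 and chr1:171917212-171917461 (plus strand) for Cd48, Slamf1 and Slamf6.
Slamf7: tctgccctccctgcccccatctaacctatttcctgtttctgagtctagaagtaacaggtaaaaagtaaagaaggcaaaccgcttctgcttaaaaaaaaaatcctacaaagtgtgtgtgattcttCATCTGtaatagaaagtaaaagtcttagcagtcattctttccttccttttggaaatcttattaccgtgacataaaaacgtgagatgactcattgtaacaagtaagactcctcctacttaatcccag
Cd48: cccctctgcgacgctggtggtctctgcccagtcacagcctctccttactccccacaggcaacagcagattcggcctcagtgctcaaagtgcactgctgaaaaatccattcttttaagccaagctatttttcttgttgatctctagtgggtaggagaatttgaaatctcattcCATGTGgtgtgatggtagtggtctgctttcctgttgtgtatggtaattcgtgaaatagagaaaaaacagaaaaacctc
Slamf1: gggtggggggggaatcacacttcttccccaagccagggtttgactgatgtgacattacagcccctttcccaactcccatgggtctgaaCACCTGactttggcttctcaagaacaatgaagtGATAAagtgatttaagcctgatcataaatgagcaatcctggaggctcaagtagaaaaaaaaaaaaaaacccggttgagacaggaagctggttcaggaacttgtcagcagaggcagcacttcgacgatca
Slamf6: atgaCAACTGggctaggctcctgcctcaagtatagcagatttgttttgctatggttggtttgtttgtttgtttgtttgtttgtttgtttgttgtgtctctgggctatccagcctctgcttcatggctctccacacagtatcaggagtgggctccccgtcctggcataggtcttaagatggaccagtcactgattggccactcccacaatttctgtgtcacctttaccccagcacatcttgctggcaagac
Each of the 4 stretches held 1 match to the E-box CANNTG, which E proteins of the lymphoid lineages can bind. That short motif occurs in 66.2% of 32851 promoter stretches of the same length. Slamf1 alone of the 4 also held 1 match to the GATA core GATAA, present in 22.6% of promoters. No stretch held the PU.1 core GAGGAA (23.3% of promoters) or TATAAA (12.4%), searched on both strands. CpG dinucleotides numbered 3 in Slamf7, 4 in Cd48, 3 in Slamf1 and 1 in Slamf6, against a median of 6 over all stretches. The bases that follow the Slamf6 stretch were not found in a GENCODE transcript of that gene, unlike those of the other stretches. The Slamf7 stretch lies inside the GENCODE span given above, so its RefSeq start is not the start used for the distances.

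The members were distributed over the classes in different ways. Slamf1, the gene of the stem cell marker CD150, was highest in control in megakaryocyte-like cells at 19.5 CPM, followed by erythroid progenitor-like cells at 7.74 CPM and by hematopoietic stem and multipotent progenitor (HSC/MPP)-like cells at 5.32 CPM (4.10 to 6.78). Neutrophil-like cells held 0.417 CPM and B-cell progenitor-like cells 1.57 CPM, the latter from 5 counts. T/NK/innate lymphoid-like cells gave 13.3 CPM from 4 counts (3.63 to 34.1), an interval that covers the level of the erythroid class.

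Cd48 was found in nearly every class. In control it ranged from 65.2 CPM in erythroid progenitor-like and 66.3 CPM in megakaryocyte-like cells, through 127 CPM in granulocyte progenitor-like, 135 CPM in basophil/mast-like, 153 CPM in B-cell progenitor-like and 179.8 CPM in HSC/MPP-like cells, to 197 CPM in monocyte/macrophage progenitor-like and 313 CPM in T/NK/innate lymphoid-like cells. Neutrophil-like cells stood apart at 8.05 CPM. The erythroid and megakaryocyte levels, and those of the granulocyte and basophil/mast classes, did not differ beyond their counting intervals.

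Slamf6 and Slamf7, receptors best known from lymphocytes, were almost confined to lymphoid classes in control. Slamf6 stood at 262 CPM in B-cell progenitor-like and 153 CPM in T/NK/innate lymphoid-like cells, against at most 0.788 CPM in 5 of the 7 other classes, 1.94 CPM in monocyte/macrophage progenitor-like cells and 0 counts in basophil/mast-like cells, which allows up to 2.07 CPM. Slamf7 stood at 150 CPM in B-cell progenitor-like cells, at 6.65 CPM (2 counts) in T/NK/innate lymphoid-like cells, and at no more than 0.690 CPM in the others. Ly9, which encodes CD229, was more even, at 39.9 CPM in T/NK/innate lymphoid-like, 19.8 CPM in B-cell progenitor-like, 18.5 CPM in monocyte/macrophage progenitor-like and 10.5 CPM in HSC/MPP-like cells.

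The dendritic-like and mature B cell-like classes reached 50 cells in 1 library each. Dendritic-like cells of the library labelled Mll4 (107 cells) held Slamf7 at 287 CPM (233 to 351) and Cd48 at 266 CPM, with Slamf6 at 11.98 CPM. Mature B cell-like cells of the library labelled Mll3 (145 cells) held Slamf6 at 189 CPM and Slamf7 at 74.3 CPM. Slamf6 was thus low in the dendritic-like cells and plentiful in both B-lineage classes.

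**Figure D1:**
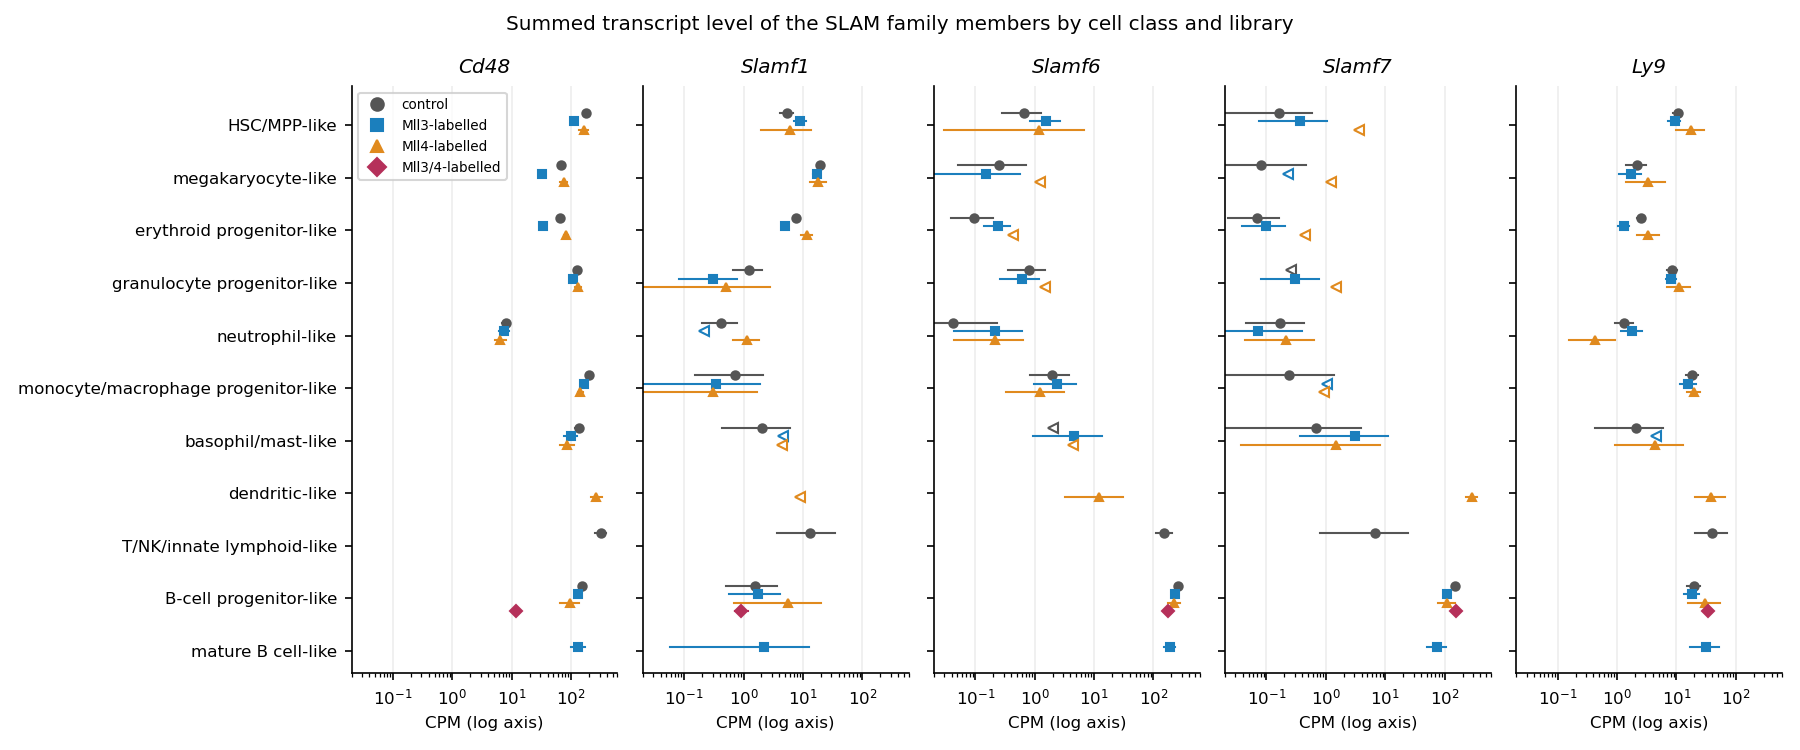
Summed level of each member (CPM on a log axis, a different gene in each panel) by cell class and library; points are libraries, lines are exact Poisson 95% intervals, and open triangles mark a count of 0 at the level of 3 counts. In B-cell progenitor-like cells the Mll3/4-labelled point for Cd48 lies at 11.99 CPM, to the left of the other 3 libraries at 95.4 to 153 CPM, while the points for Slamf6 and Slamf7 lie close together.

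Sums over all kept cells also reflect cell make-up, and fewer cells of a type and less RNA per cell cannot be told apart in them. Slamf6 stood at 6.17, 6.04, 2.84 and 172 CPM in control and the Mll3-, Mll4- and Mll3/4-labelled libraries. Slamf7 stood at 3.31, 2.87, 4.30 and 150 CPM, Ly9 at 4.90, 3.92, 5.77 and 33.5 CPM. Slamf1 stood at 6.05, 5.10, 4.61 and 1.09 CPM and Cd48 at 87.3, 56.2, 71.0 and 13.7 CPM. Control B-cell progenitor-like cells held Cd48 at 153 CPM, above the 87.3 CPM of all control cells. Those of the library labelled Mll3/4 held it at 11.99 CPM. In the library labelled Mll3/4 all 5 members were past 2-fold, with Slamf6, Slamf7 and Ly9 higher and Slamf1 and Cd48 lower; 39.3% of the 15158 genes tested were past 2-fold there. None was past 2-fold in the library labelled Mll3 (4.98% of genes), and 1, Slamf6, was lower by that measure in the library labelled Mll4 (18.4% of genes).

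Within B-cell progenitor-like cells, Cd48 separated from the rest of the family. It stood at 153 CPM in control (488 counts), 129.5 CPM in the library labelled Mll3 (373 counts), 95.4 CPM in the library labelled Mll4 (34 counts) and 11.99 CPM in the library labelled Mll3/4 (910 counts). The library labelled Mll3/4 lies far below the other 3, which themselves run from 95.4 to 153 CPM. Its level was 12.8-fold lower than in control (interval 11.4 to 14.3), a log2 ratio of -3.68 (-3.84 to -3.52). Among the control classes only neutrophil-like cells, at 8.05 CPM, had so little Cd48.

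The 4 other members showed no such difference in the same cells. Slamf7, the nearest member to Cd48 on the chromosome, stood at 150 CPM in control, 109 CPM in both the Mll3- and the Mll4-labelled libraries and 153 CPM in the library labelled Mll3/4. Its log2 ratio for the library labelled Mll3/4 was 0.03 (-0.10 to 0.17). Slamf6 stood at 262, 234, 225 and 176 CPM in the same order, a log2 ratio of -0.58 (-0.68 to -0.47).
Ly9 stood at 19.8, 18.1, 30.9 and 34.0 CPM, a log2 ratio of 0.78 (0.42 to 1.17), and was higher in the library labelled Mll3/4 than in control. Slamf1 gave 5 counts in control and 70 in the library labelled Mll3/4, a log2 ratio of -0.77 whose interval (-2.06 to 0.90) includes 0. Cd48 was thus the 1 member of 5 past 2-fold. Of the 13459 genes tested in these cells 21.8% were past 2-fold, so 1 of 5 is close to the share over all genes.

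Of the 4 family genes that are not members, Cd84 and Cd244a, the gene of the CD48 receptor, had enough counts to compare. Cd84 stood at 28.3 CPM in control cells, against 29.1 CPM in the library labelled Mll3/4, and Cd244a at 8.17 and 7.56 CPM. Neither was past 2-fold.

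The 2 libraries did not fill the class from the same clusters, and other surface markers differed along with CD48. Almost all control cells of the class came from clusters 17 and 21, and almost all of those of the library labelled Mll3/4 from clusters 0, 5, 6, 10 and 22. Median antibody counts in control and the library labelled Mll3/4 were 55 and 256 for CD117 (Kit), 193 and 13 for B220, and 32 and 45 for CD127, the interleukin-7 receptor chain. The 9 neutrophil markers summed to 2442 CPM in control cells, against 81.5 CPM in the library labelled Mll3/4, and the 7 granulocyte progenitor markers to 1149.6 and 564 CPM. The 11 HSC/MPP markers went the other way, at 58.1 and 246 CPM. Their part in the Cd48 difference was not tested.

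Comparisons with narrower sets of control cells left Cd48 far lower in the library labelled Mll3/4. Against control cells of cluster 17 alone the log2 ratio was -3.86, and against those of cluster 21 alone it was -3.54. Among cells above the CD117 threshold of 124 counts (45 in control and 5487 in the library labelled Mll3/4), Cd48 stood at 204 and 11.7 CPM, a log2 ratio of -4.12 (-4.46 to -3.77). Those 45 control cells are fewer than the 50 asked of a class. Slamf7 was less stable than Cd48 to the choice of control cells, with log2 ratios of -0.58 against cluster 17, 0.64 against cluster 21 and -0.66 among CD117-high cells. Slamf6 gave -1.04, -0.16 and -0.23 under the same 3 choices, and Ly9 0.47, 1.03 and 0.23. Slamf1 gave -1.78, 0.82 and -1.68, resting on 4, 1 and 1 control counts. Cd48 was thus not the only member past 2-fold under these choices, and Slamf1 and Slamf7 changed direction between them.

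The CD48 antibody, a readout separate from the transcript, showed the same difference on the cell surface. Its median count per cell in B-cell progenitor-like cells was 1031 in control, 907 in the Mll3-labelled, 891 in the Mll4-labelled and 26 in the library labelled Mll3/4. A threshold of 377 counts, taken from the control cells, was passed by 98.3% (96.7 to 99.3), 98.1%, 93.0% and 14.4% (13.6 to 15.3) of the cells. With a threshold fitted in the library labelled Mll3/4 itself, at 96.1 counts, its share was 27.2%. The CD150 antibody had medians of 4, 4, 6 and 4 counts in these cells. All lie below its threshold of 13.8 counts, which 7.43% of the control cells passed, so a lower level could hardly have shown. Over all kept cells, the median total of surface antibody counts per cell, CD48 included, was 570 in the library labelled Mll3/4. It was 1117 in control, and the part of this in the CD48 difference was not tested.

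**Figure D2:**
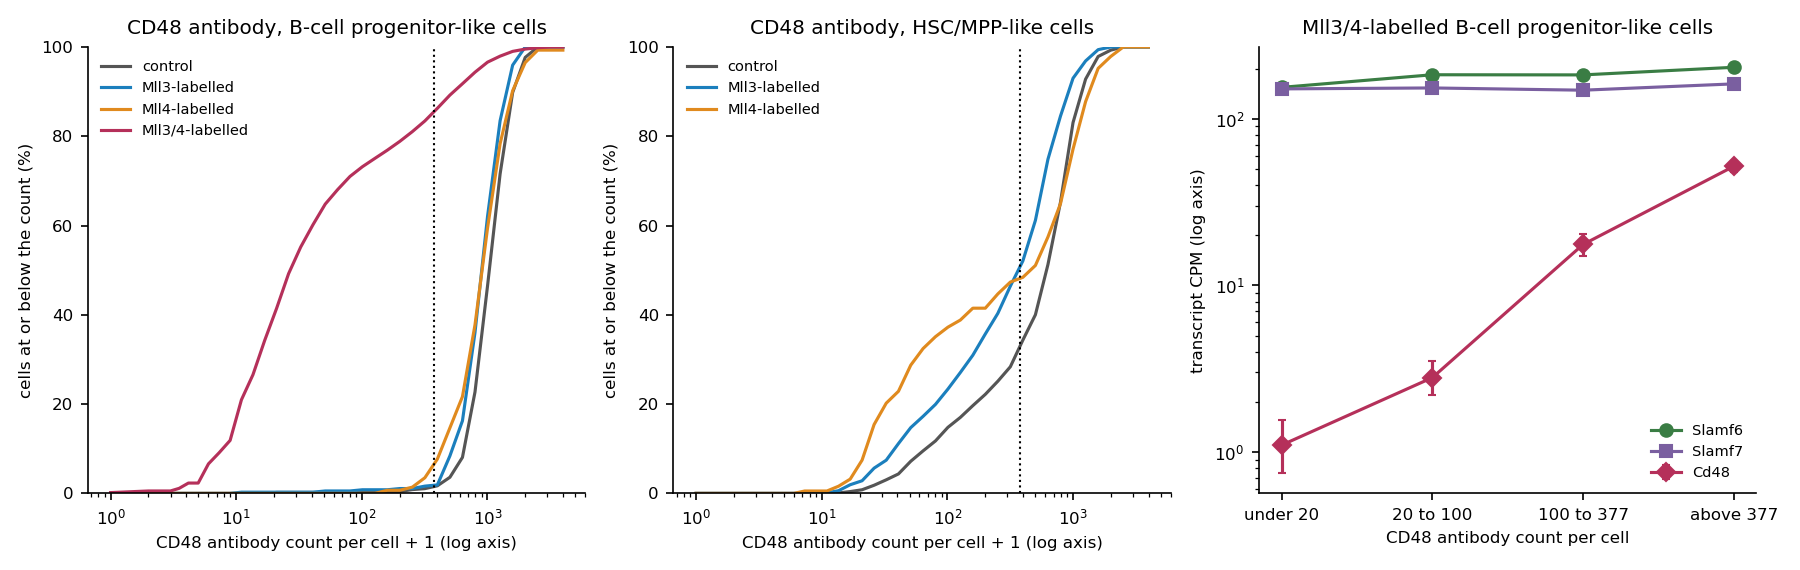
Left and middle, cumulative share of cells (%) by CD48 antibody count (log axis) in B-cell progenitor-like and HSC/MPP-like cells of each library, with the threshold of 377 counts dotted; right, summed Cd48, Slamf6 and Slamf7 CPM (log axis) in 4 ranges of CD48 antibody count among Mll3/4-labelled B-cell progenitor-like cells, bars for Cd48 being exact Poisson 95% intervals. The Mll3/4-labelled curve rises at low counts (median 26) while the other 3 rise around 891 to 1031, and Cd48 climbs from 1.10 to 51.9 CPM with its antibody while Slamf7 stays between 148 and 162 CPM.

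CD48 was not uniform among the Mll3/4-labelled B-cell progenitor-like cells, and its transcript followed its antibody. Of the 6831 cells, 2831 (41.4%) had fewer than 20 CD48 antibody counts, and these held Cd48 at 1.10 CPM (0.747 to 1.56). In the 2165 cells with 20 to 100 counts Cd48 stood at 2.79 CPM, and in the 849 cells with 100 to 377 counts at 17.6 CPM. The 986 cells above the threshold held 51.9 CPM (47.9 to 56.0), which is still below the 153 CPM of control cells above the same threshold. Slamf7 stayed between 148 and 162 CPM over the same 4 ranges, and Slamf6 ran from 154 to 203 CPM. Depth was similar, with medians of 8982 to 11082 UMIs per cell.

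The CD48-high minority was spread over the whole class. It made up 7.49% of cluster 10, 9.80% of cluster 22, 12.7% of cluster 0, 17% of cluster 6 and 19.1% of cluster 5. Each library carried 2 hashtag antibodies whose meaning the labels do not give; the share was 12.1% under hashtag 1 (3673 cells) and 17.1% under hashtag 2 (2979 cells). Cd48 stood at 10.3 and 13.9 CPM under those hashtags, against 133 and 169 CPM under hashtags 1 and 2 in control, so the levels under both hashtags lay far below control. Cells of other classes in the same Mll3/4-labelled library, only 86 in all, held Cd48 at 88.6 CPM with a median antibody count of 445, beside 85.9 CPM and 402 counts in control cells outside the B-cell progenitor class; the mix of cell types differs between these 2 sets.

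Per cell, after thinning to 2000 UMIs, a Cd48 UMI was found in 25.9% of 441 control cells of the class (21.8 to 30.2) and in 2.24% of 6748 Mll3/4-labelled cells (1.90 to 2.62). Without thinning the shares were 56.9% and 9.35%, at median depths of 4389 and 9936 UMIs; thinning left out 30 and 83 cells. Neutrophil-like control cells, the class with least Cd48, gave 1.77% (1.21 to 2.50, median depth 13536.5 UMIs), an interval that overlaps that of the Mll3/4-labelled cells. The Mll3/4-labelled share is an average over cells that differed widely in Cd48, from 1.10 to 51.9 CPM over the antibody ranges above. Slamf7 UMIs were found in 28.6% and 24.6% of the thinned control and Mll3/4-labelled cells, and Slamf6 UMIs in 45.1% and 26.8%. In thinned neutrophil-like control cells the shares were 0 of 1752 for Slamf7 and 0.0571% for Slamf6.

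Around Cd48, most genes tested within 500 kb did not share its difference in B-cell progenitor-like cells. Of 42 genes whose start lies within 500 kb of the Cd48 start, 36 had enough counts; 5 were lower past 2-fold in the library labelled Mll3/4, none was higher, and the median log2 ratio was -0.14. Over all genes tested in these cells 10.0% were lower and 11.8% higher past 2-fold, so 5 of 36 is close to the share over all genes. Besides Cd48 these were Fcer1g, the shared gamma chain of Fc receptors, at -3.66, Gm37065 at -2.52, Gm10521 at -1.72, and F11r, a junctional adhesion molecule, at -1.25 with an interval that includes 0. Gm37065, which overlaps Slamf6 in antisense, stood at 171 CPM in control cells, against 29.7 CPM in the library labelled Mll3/4, a gap wider than that of Slamf6 itself. Of the 10 protein-coding neighbours listed, 9 were tested and 1, F11r, was past 2-fold, against 21.8% of all genes tested. The gene with the start nearest to that of Cd48, A630035G10Rik on the minus strand (-0.029 kb), had too few counts to be tested. Its 4 counts in control and 10 in the library labelled Mll3/4 gave a log2 ratio of -3.25 (-5.05 to -1.13).

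**Figure D3:**
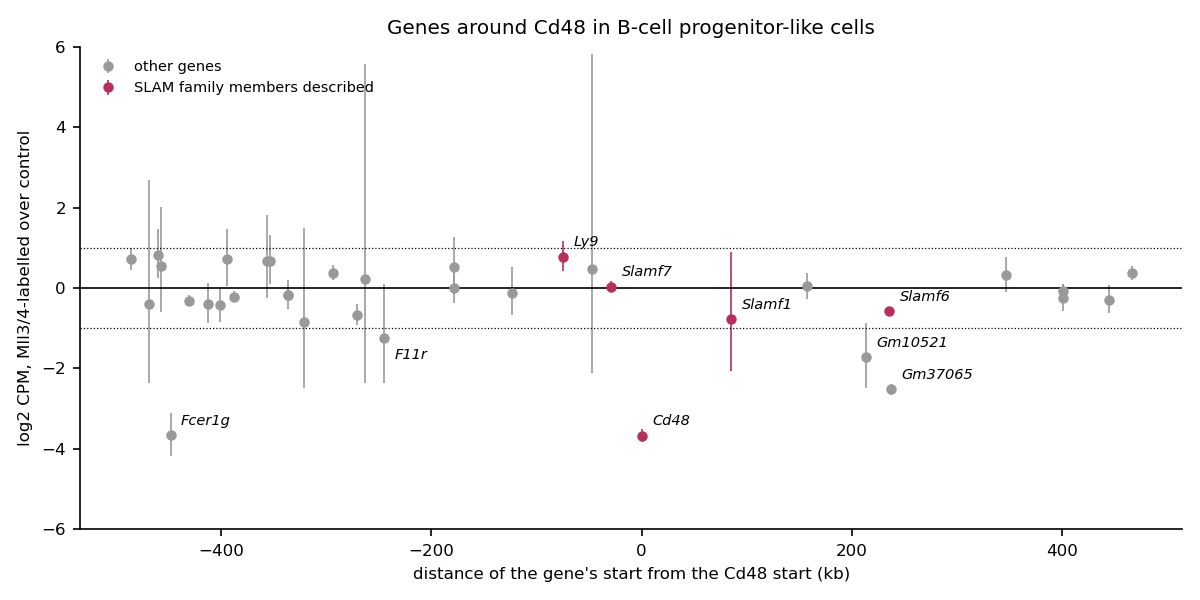
Log2 ratio of CPM in B-cell progenitor-like cells, Mll3/4-labelled library over control, for the 36 genes tested within 500 kb of the Cd48 start, by distance of the gene's start (kb); bars are exact 95% counting intervals and dotted lines mark 2-fold. Cd48 and Fcer1g lie near -3.7 while Slamf7 and Ly9, the members nearest to Cd48, lie at 0.03 and 0.78.

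The signalling list held 16 genes: adaptors, kinases, phosphatases, phospholipases, an exchange factor and the surface receptor gene Cd2. Of these, 12 had enough counts in B-cell progenitor-like cells, and Cd2 did not. In the library labelled Mll3/4 8 of the 12 were lower past 2-fold and none was higher, and the median log2 ratio of the 12 was -1.35; over all genes tested 10.0% were lower past 2-fold and the median was 0. Marker sums of other cell types differed in both directions in the same cells. The 9 neutrophil markers summed to 2442 CPM in control and 81.5 CPM in the library labelled Mll3/4. The 8 monocyte/macrophage progenitor markers summed to 193 and 35.2 CPM, and the 10 T/NK/innate lymphoid markers to 83.9 and 16.1 CPM. Among the sums that were higher were those of the 11 HSC/MPP markers, at 58.1 and 246 CPM, and the 9 dendritic markers, at 130 and 181 CPM. Lck is known from T cells and Ptpn6, Lyn and Dok2 also from myeloid cells, and the part of such RNA in the result was not tested. The Src-family kinase Lck stood at 16.97 CPM in control cells, against 1.20 CPM in the library labelled Mll3/4 (log2 ratio -3.82), and its relative Lyn at 61.0 and 21.3 CPM (-1.52). Ptpn6, which encodes the phosphatase SHP-1, stood at 49.3 and 7.31 CPM (-2.75), and Inpp5d, which encodes the lipid phosphatase SHIP1, at 140.5 and 62.1 CPM (-1.18).
Plcg2, a phospholipase of B-cell receptor signalling, stood at -2.46, Dok2 at -2.25, Vav1, an exchange factor, at -1.65 and Dok1 at -1.19 on the log2 scale. Fyn, the kinase that the adaptor SAP recruits to SLAM receptors, was at 48.4 CPM in control cells, against 70.8 CPM in the library labelled Mll3/4 (0.55), and Csk, Ptpn11 and Plcg1 lay between -0.31 and 0.20. Sh2d1a, the gene of SAP itself, had 0 counts in control and 1 in the library labelled Mll3/4, so no level could be set.

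In the library labelled Mll3 Cd48 was lower in several classes, by less than in the library labelled Mll3/4, and it was not the only member that was. In HSC/MPP-like cells Cd48 stood at 179.8 CPM in control cells, 113 CPM in Mll3-labelled cells and 163 CPM in the library labelled Mll4. It stood at 66.3, 32.7 and 74.99 CPM in megakaryocyte-like cells and at 65.2, 33.5 and 81.3 CPM in erythroid progenitor-like cells. The Mll3-labelled value was the lowest of the 3 in each of these 3 classes. Its log2 ratios to control were -0.66 (-0.78 to -0.55), -1.02 (-1.19 to -0.85) and -0.96 (-1.03 to -0.89). In erythroid progenitor-like cells Ly9 stood at 2.56 CPM in control and 1.30 CPM in Mll3-labelled cells, a log2 ratio of -0.97 (-1.35 to -0.61). Slamf1 had a ratio of -0.63 (-0.83 to -0.44) there, so 3 members had intervals below 0. The share of the 12248 genes tested there with such an interval was not counted, and their median log2 ratio was -0.06. In B-cell progenitor-like cells the Mll3-labelled ratios of Slamf7, -0.45 (-0.66 to -0.25), and Slamf6, -0.16 (-0.31 to -0.02), also had intervals below 0. Ly9 had an interval that includes 0 in the 6 other classes in which it could be compared.

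The Mll3-labelled ratio was below 0 in all 8 classes compared, and the interval lay below 0 in 7 of them, neutrophil-like cells being the exception at -0.11. The other classes lay between -0.22 in granulocyte progenitor-like and -0.47 in basophil/mast-like cells. The median log2 ratio over all genes tested lay between -0.09 and -0.02 in the class comparisons of this library, so small ratios are read against that shift. Classes of 1 library are not independent repeats. In granulocyte progenitor-like cells the sign did not survive thinning to 2000 UMIs (0.0017). Past 2-fold was reached by 1 of 3 members tested in megakaryocyte-like cells (background 3.69%), and by none in HSC/MPP-like (2.65%), erythroid (4.07%), granulocyte (2.11%), monocyte/macrophage (2.01%), neutrophil (2.35%), basophil/mast (4.47%) or B-cell progenitor-like cells (3.27%). The megakaryocyte call, at a ratio close to the limit, was lost under 6 of its alternatives.

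In 3 of the classes split by hashtag, the Mll3-labelled Cd48 values lay below control under each hashtag. In HSC/MPP-like cells Cd48 was at 174 and 188 CPM under hashtags 1 and 2 in control and at 109.9 and 118 CPM in the library labelled Mll3. Megakaryocyte-like cells gave 56.5 and 77.9 CPM against 30.4 and 36.2 CPM. Erythroid progenitor-like cells gave 58.5 and 71.2 CPM against 39.8 and 24.1 CPM. In B-cell progenitor-like cells the values overlapped, at 133 and 169 CPM in control and 143 and 112 CPM in the library labelled Mll3. Hashtags of 1 library are not replicates, and the same hashtag need not mark the same thing in 2 libraries. How many genes differ in the same way under both hashtags was not counted.

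**Figure D4:**
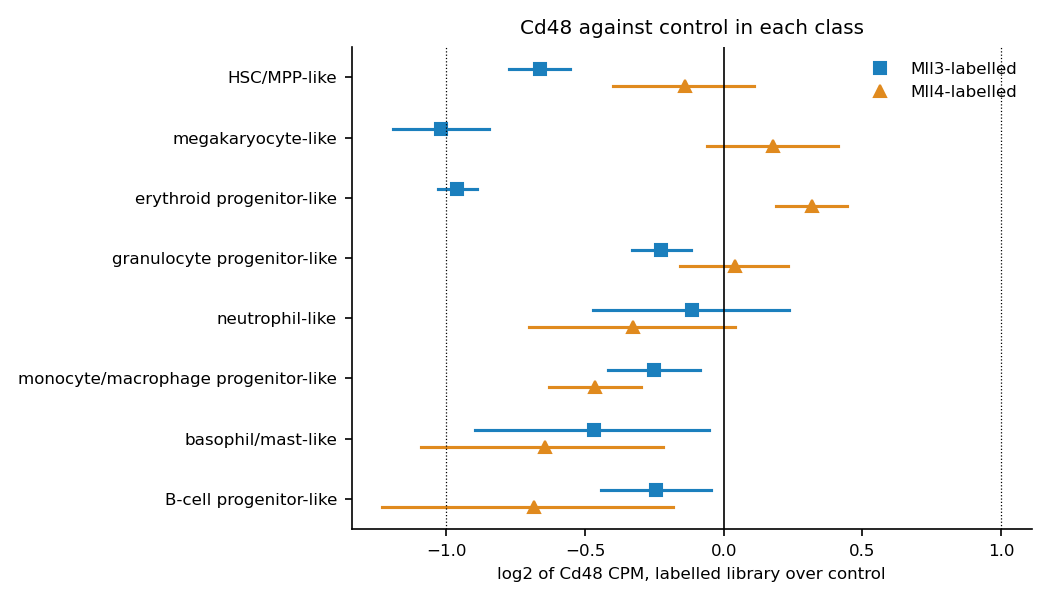
Log2 ratio of Cd48 CPM to control in each class for Mll3- and Mll4-labelled cells, with exact 95% counting intervals; the dotted lines mark 2-fold. The Mll3-labelled points all lie below 0, from -1.02 to -0.11, while the Mll4-labelled points lie on both sides, from -0.68 to 0.32.

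The antibody was lower along with the transcript in those 3 classes of the library labelled Mll3. The median CD48 antibody count of HSC/MPP-like cells was 618 in control, 356 in the Mll3-labelled and 463 in the library labelled Mll4, and the share above the threshold was 67.5% (64.5 to 70.4), 48.7% (44.8 to 52.5) and 52.1% (44.7 to 59.5). The Mll4-labelled median was split by hashtag, at 644 counts in 118 cells under hashtag 1 and 109 counts in 68 cells under hashtag 2, where Cd48 stood at 175 and 142 CPM with overlapping intervals. Medians were 480, 314 and 571 counts in megakaryocyte-like and 472, 356 and 594.5 counts in erythroid progenitor-like cells. Neutrophil-like cells had 155, 152 and 102 counts, and granulocyte progenitor-like cells 556, 540.5 and 699. Over all kept cells, the median total of surface antibody counts per cell, CD48 included, was 1117, 1071 and 1357 in the 3 libraries.

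In the library labelled Mll4 Cd48 did not move one way. Its interval lay below 0 in 3 of 8 classes (B-cell progenitor-like at -0.68, basophil/mast-like at -0.65 and monocyte/macrophage progenitor-like at -0.46) and above 0 in erythroid progenitor-like cells at 0.32. In basophil/mast-like cells the antibody went the other way, with a median of 628.5 counts in control and 787 in the library labelled Mll4. It ran with the transcript in B-cell progenitor-like (1031 and 891), monocyte/macrophage progenitor-like (824.5 and 702) and erythroid progenitor-like cells (472 and 594.5). The median log2 ratio over all genes tested lay between 0.07 and 0.26 in the class comparisons of this library, so ratios there are read against that shift. Ly9 in neutrophil-like cells, with 6 counts against 32, was the 1 member of 2 tested that passed 2-fold there (background 9.24%). None did in the HSC/MPP-like (11.9%), megakaryocyte-like (10%), erythroid (10.7%), granulocyte (14.1%), monocyte/macrophage (12.1%), basophil/mast (16.9%) or B-cell progenitor-like cells (17.1%).

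Slamf1 and its product CD150 differed between libraries in a class-dependent way. In erythroid progenitor-like cells Slamf1 stood at 7.74 CPM in control cells, 4.99 CPM in Mll3-labelled cells and 11.5 CPM in the library labelled Mll4. The Mll3-labelled value rested mostly on hashtag 2: Slamf1 was at 6.29 CPM (5.54 to 7.10) under hashtag 1 and 3.08 CPM under hashtag 2, against 7.40 (6.49 to 8.39) and 8.10 CPM in control, and the hashtag 1 intervals overlap. The share of those cells above the CD150 threshold of 13.8 counts ran in the same order, at 42.1% (39.8 to 44.5), 33.1% (30.8 to 35.4) and 51.9% (47.5 to 56.3). In megakaryocyte-like cells Slamf1 was close in all 3 libraries, at 19.5, 17.2 and 18.1 CPM, whereas the median CD150 count was 48, 56 and 29. The share above the threshold there was 92.2%, 90.4% and 65.9%, so antibody and transcript parted in the Mll4-labelled cells. Under its hashtag 2 those cells held Slamf1 at 4.67 CPM from 4 counts, against 21.3 CPM under hashtag 1.

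In HSC/MPP-like cells Slamf1 stood at 5.32 CPM in control cells, 9.05 CPM in Mll3-labelled cells and 5.95 CPM (5 counts) in the library labelled Mll4, and the Mll3-labelled log2 ratio was 0.77 (0.27 to 1.27). That ratio rested on cells of 1 hashtag: Slamf1 was at 5.72 CPM under hashtag 1 and 13.8 CPM under hashtag 2, against 5.97 and 4.24 CPM in control. The CD150-positive share of the class was 26.4%, 29.6% and 27.1%, with overlapping intervals.

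Within HSC/MPP-like cells the 2 antibodies divided the transcripts sharply. Cells above the CD150 threshold held Slamf1 at 18.2 CPM and those below at 0.985 CPM in control, an 18.5-fold difference (9.06 to 42.5). In the library labelled Mll3 the levels were 29.1 and 1.02 CPM, 28.6-fold apart (12.5 to 80.7), and in the library labelled Mll4 all 5 Slamf1 counts were in CD150-positive cells. For Cd48 the cells above and below the CD48 threshold differed 5.27-fold in control, 3.81-fold in the Mll3-labelled and 11.7-fold (5.78 to 27.8) in the library labelled Mll4.

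The stem cell phenotype, CD150-positive and CD48-negative, took 193 of 987 HSC/MPP-like cells in control (19.6%, 17.1 to 22.2), 171 of 672 in the Mll3-labelled (25.4%, 22.2 to 28.9) and 39 of 188 in the library labelled Mll4 (20.7%, 15.2 to 27.2). In control those cells held Slamf1 at 22.8 CPM and Cd48 at 19.1 CPM, and the CD150-negative, CD48-positive cells held 0.892 and 236 CPM. Cells negative for both antibodies made up 12.97% (10.9 to 15.2) of the class in control and 25.9% (22.6 to 29.4) in the library labelled Mll3. Their Cd48 level was 86.1 and 78.1 CPM, so negative does not mean without the transcript. All these shares use the thresholds taken from control cells. The CD48 threshold fitted in the library labelled Mll3 itself was lower, at 238 counts. With it 60.7% of the Mll3-labelled HSC/MPP-like cells were CD48-positive in place of 48.7%, beside 67.5% in control. Shares of the antibody phenotypes under that lower threshold are not given here. Among CD48-positive, CD150-negative cells Cd48 stood at 236 CPM in control cells, against 179 CPM in the library labelled Mll3. Cells above the same threshold need not match in antibody level. The upper quartile of CD48 counts in the whole class was 896 in control and 631 in the library labelled Mll3.

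Across all classes and libraries with at least 50 cells, the transcript and antibody levels ran together. Over 28 such units Pearson's r was 0.83 and Spearman's rho 0.67 for Cd48 against CD48, and 0.77 and 0.69 for Slamf1 against CD150. Units of 1 library share its depth and staining, and these values are descriptions.

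**Figure D5:**
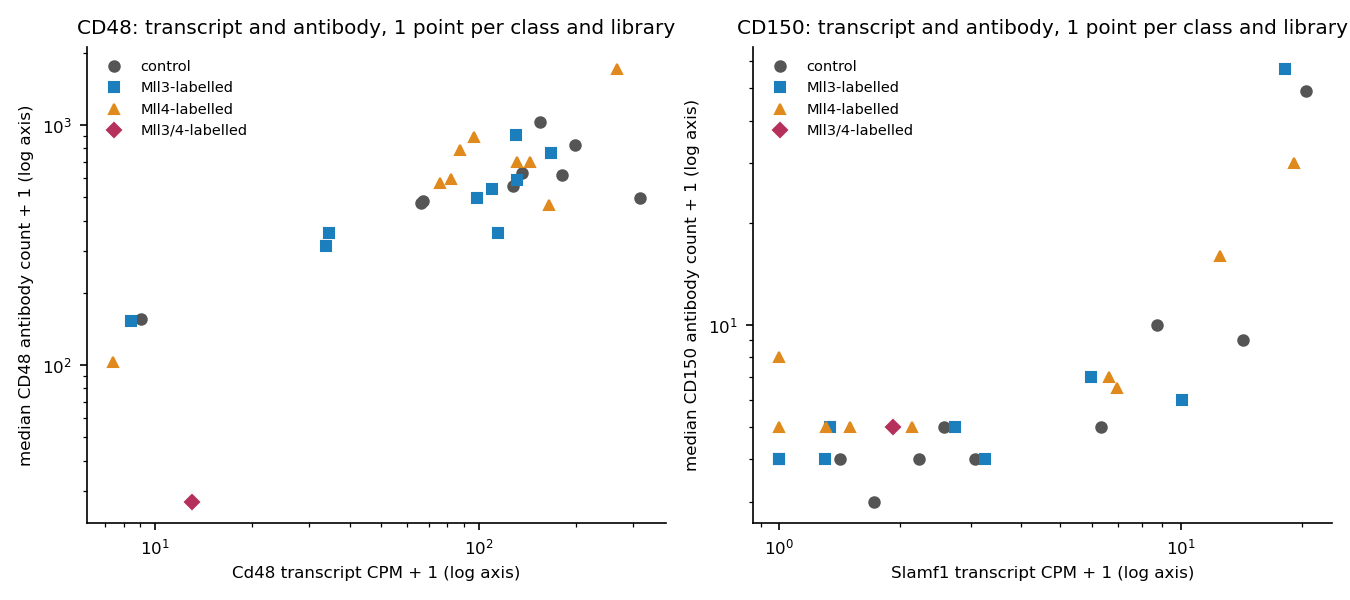
Median antibody count per cell against summed transcript CPM (both plus 1, log axes) for CD48 and CD150, 1 point per class and library with at least 50 cells. The Mll3/4-labelled B-cell progenitor-like point has the lowest CD48 count, 26, and the 3 highest CD150 medians are those of megakaryocyte-like cells.

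Over the same 28 units Slamf6 and Slamf7 varied together (r of 0.89), Ly9 less closely with either (0.68 and 0.60), and Slamf1 with none of them (r between -0.18 and 0.10 against the other 4 members). The genes outside the family whose level ran most like Slamf6 were Tmem108, Ifi206 and Grap (r of 0.95, 0.94 and 0.94), and like Slamf7 Ifi214, Irf4 and Gfra1 (0.95, 0.92 and 0.92). Ly9 ran most like Dusp22, Gramd3 and Ctss (0.89, 0.87 and 0.87), Cd48 like Aim2, Tox4 and Psme1 (0.87, 0.85 and 0.85), and Slamf1 like Clca3a1, Tgfbr3 and Dcaf12l1 (0.85, 0.84 and 0.82). These are the 3 highest correlations of log2(CPM + 1) for each member among genes with at least 100 counts, and the units share libraries.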

How the data were processed

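Single-cell RNA and antibody counts of CD45.2+ Kit+ bone marrow were analysed in 4 libraries, 1 per group. The authors deposited UMI counts per gene and antibody and cell, made with Cell Ranger 6.1.2 on mm10 per the submitters' processing notes; the annotation release, cell calling settings and strand setting are not given in the sources used here. The 10x 3′ chemistry counts molecules at transcript ends, so levels are not scaled to length and are not compared between genes.

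Cells with at least 500 genes, at least 1000 UMIs and at most 10% mitochondrial UMIs were kept. Scrublet scores (scanpy 1.11.5, scikit-learn 1.9.0) marked 5.29% to 8.01% of these as doublets, which were removed, at an assumed 0.8% per 1000 cells. Counts scaled to 10000 per cell were clustered (2000 variable genes, 30 components, 15 neighbours, Leiden resolution 1, leidenalg 0.10.2), leaving out the 9 SLAM family genes, Xist, Y-linked and mitochondrial genes and all antibodies. A cluster was named from 110 markers of 13 classes where at least 3 were detected. Clusters 14, 19 and 25 stayed unnamed, the last (119 cells, 95 of them Mll3-labelled) for its low UMI counts. B-cell progenitor-like cells were almost all in clusters 17 and 21 in control and the Mll3- and Mll4-labelled libraries and clusters 0, 5, 6, 10 and 22 in the library labelled Mll3/4; neutrophil-like cells were mainly clusters 1 and 13 in control and the library labelled Mll3 and clusters 2 and 12 in the library labelled Mll4.

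Counts were summed per class and library and given as CPM with exact Poisson intervals, ratios with exact conditional intervals and shares with exact Clopper-Pearson intervals (scipy 1.17.1), all at 95%. A count of 0 was set to 3 counts, and no fold was given where that floor lay above the other library. Genes with at least 20 counts in either library were compared, and past 2-fold is a description with no test. Antibody thresholds are the crossing points of 2 Gaussian components of log10(count + 1) in control cells. The ratio and interval code was tested on simulated counts. TMM factors came from edgeR 4.0.16 as an alternative.

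The members, the list of 16 signalling genes, the 10 neighbours and the 4 other family genes were chosen with earlier results of these data known. Named genes are the members, list genes past 2-fold, and for each member the 3 genes most correlated with it. The genes Gm37065, Gm10521, Fcer1g and A630035G10Rik, the listed genes under 2-fold, and the comparisons by hashtag, CD117 and cluster were chosen after values were seen.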

Additional observations from a re-analysis of the deposited data

How the results depend on the processing

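No paired analysis was possible because each group was 1 library. The lower Cd48 of Mll3/4-labelled B-cell progenitor-like cells had log2 ratios between -4.12 and -3.54 over its 12 alternatives, and TMM scaling, which moved every ratio of that comparison alike, gave -3.56. There 2 members in place of 1 were past 2-fold after thinning to 2000 UMIs (Ly9 at 1.03) and with means over cells (Slamf1 at -1.12). The count in megakaryocyte-like cells of the library labelled Mll3 was 0 without doublet removal, after thinning, with means over cells, with TMM scaling, with a pseudocount of 1 CPM and with clustering seed 1, and that in the erythroid class was 1 without doublet removal and with seed 1. In the library labelled Mll4 the count was 1 with seed 1 in the HSC/MPP, megakaryocyte and granulocyte progenitor classes and 1 in the monocyte/macrophage class after thinning. It was 0 in the neutrophil class after thinning, with the pseudocount and with a minimum of 100 counts, and 0 over all cells with the pseudocount. Reversed over all cells were Slamf1 in the library labelled Mll3 (0.20 thinned, 0.093 with means over cells) and Slamf7 in the library labelled Mll4 (-0.83 thinned, -0.59 with means over cells); Cd48 in Mll3-labelled granulocyte progenitor-like cells was 0.0017 thinned. The cause was not tested. The share above the CD48 threshold in HSC/MPP-like cells was 59.5% without doublet removal and 71.6% at resolution 2 in control, and 42.0% and 53.8% under the same settings and 60.7% with its own threshold in the library labelled Mll3. In Mll3/4-labelled B-cell progenitor-like cells it was 27.2% with its own threshold, 21.5% with counts scaled to the control median and 26.8% at 100 counts, a threshold chosen after seeing the data that 99.8% of control cells passed. Thinned Cd48 shares of those cells were 31.5% in control with another seed, and 44.05% in control and 4.29% in the library labelled Mll3/4 at 4000 UMIs. Depth was lowest in the library labelled Mll4, where Slamf1, Slamf6 and Slamf7 had under 20 counts in most classes.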

Other observations

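Clusters 14 and 19 were left without a name because markers of another class than their own were among their leading genes; cluster 14 was led by Hist1h2ap, Cd34 and Adgrl4, and cluster 19 by Ccl9, Cebpa and Cpa3. Cd48 stood at 194, 136 and 191 CPM in cluster 14 and at 215, 179 and 294 CPM in cluster 19, in control and the Mll3- and Mll4-labelled libraries. The Mll3-labelled value was again the lowest of the 3 in both clusters. Slamf1 gave 23, 23 and 3 counts in cluster 14 and 2, 2 and 0 in cluster 19.

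Slamf8 and Slamf9, family genes known from myeloid cells, were at 141 and 38.9 CPM in the dendritic-like cells of the library labelled Mll4, which also had the highest CD48 antibody median of any class, 1719 counts. Cd84 stood at 126 CPM and Cd244a at 49.9 CPM in the 50 T/NK/innate lymphoid-like cells of control. In HSC/MPP-like cells Cd244a was at 26.6, 20.04 and 25 CPM and Cd84 at 48.2, 45.7 and 63.1 CPM in control and the Mll3- and Mll4-labelled libraries.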
